A study of Homo sapiens with 2 samples.

Results

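Cytosolic ribosomal proteins are described here by their mRNA levels in MDA-MB-231 cells, an established breast cancer line, with and without a hairpin against MPP7. The members were the genes named RPL or RPS followed by a number, with an optional A, X, L, AL or L1, plus RPLP0, RPLP1, RPLP2 and RPSA. This rule took 85 of the 56569 gene names in the deposited table, 53 of the large and 32 of the small subunit. Of these, 8 were paralogs whose names end in L or L1. MPP7 is a scaffold protein of cell junctions, and the study asked which transcripts differ when it is depleted.

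The shCon library came from cells carrying a control hairpin, and the shMPP7 library from cells carrying a hairpin against MPP7. Both hairpins were delivered by lentivirus at a multiplicity of infection of 10. Both cultures had fresh medium after 12 h, were viewed by fluorescence microscopy at 72 h and then spent 7 days in puromycin. Each group is a single library (n = 1), so no difference below has a replicate check and no p-value is given. Effects of one integration pool or one culture cannot be told apart from effects of the hairpin, and the labels name no further hairpin or rescue.

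A ribosome joins a large subunit, which forms peptide bonds, to a small subunit, which reads the mRNA. Each subunit holds rRNA and a fixed set of proteins, nearly all in single copy, so their genes are expressed at similar high levels in growing cells. Most of these mRNAs begin with a cytosine followed by a run of pyrimidines, the 5′ terminal oligopyrimidine (TOP) motif, through which mTOR and the RNA-binding protein LARP1 control their translation and stability. Some members have a paralog with its own expression pattern that can take the place of the main protein in the ribosome.

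The pairs below show how far main genes and their paralogs share this start, because the paralogs are the members with the widest spread of ratios. RPL13A and RPS29 are shown as members from the upper and lower ends of the ratios, and RPLP0 as the most counted member. Each line holds 30 bases before and 20 bases from an annotated start in the RefSeq promoter table (GRCh38.p14), in the direction of transcription. Capitals mark the unbroken pyrimidine run that begins with a cytosine at the start itself, and a line with no capitals has none.
RPLP0, chr12:120201092-120201141, minus strand: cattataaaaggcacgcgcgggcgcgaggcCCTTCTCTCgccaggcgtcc
RPL13A, chr19:49487578-49487627, plus strand: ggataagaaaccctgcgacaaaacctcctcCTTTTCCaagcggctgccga
RPS29, chr14:49598691-49598740, minus strand: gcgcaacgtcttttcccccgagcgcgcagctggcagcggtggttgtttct
RPL22, chr1:6199576-6199625, minus strand: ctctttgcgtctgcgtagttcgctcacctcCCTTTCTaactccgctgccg
RPL22L1, chr3:170870176-170870225, minus strand: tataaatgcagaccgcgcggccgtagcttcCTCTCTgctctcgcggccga
RPL26, chr17:8383174-8383223, minus strand: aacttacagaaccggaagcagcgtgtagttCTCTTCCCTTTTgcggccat
RPL26L1, chr5:172958699-172958748, plus strand: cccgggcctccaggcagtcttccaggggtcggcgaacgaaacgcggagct
RPS27, chr1:153990732-153990781, plus strand: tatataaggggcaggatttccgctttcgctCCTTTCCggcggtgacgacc
RPS27L, chr15:63157458-63157507, minus strand: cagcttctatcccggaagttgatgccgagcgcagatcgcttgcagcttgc
RPL36A, chrX:101390981-101391030, plus strand: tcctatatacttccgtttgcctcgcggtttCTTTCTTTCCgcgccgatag
RPL36AL, chr14:49620607-49620656, minus strand: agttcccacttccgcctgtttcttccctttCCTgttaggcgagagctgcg

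The run is longest in RPL26, at 12 bases, and spans 9 bases in RPLP0 and 7 in RPL13A, RPL22 and RPS27. Among the paralogs shown, RPL22L1 has a run of 6 bases, RPL36AL one of 3, and RPL26L1 and RPS27L none at this start. Of 62 main genes with a promoter in the table, 46 (74.2%) had a cytosine at the start with at least 4 more pyrimidines after it. Of 6 paralogs, 1 had it, RPL22L1. The same start was found at 4.07% of all 35116 promoters and in 7.52% of 9194 measured genes.

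A letter match such as this is a description and not a mapped start site. A looser search took any run of at least 8 pyrimidines overlapping the stretch from 10 bases before to 20 bases after the start. It found one in 55 of the 62 main genes (88.7%), in 18.1% of all promoters and in 22.6% of measured genes. The motif CCGGAAG, the core bound by ETS factors such as GABPA, was searched on both strands of the whole window of 250 bases before to 50 after the start. Counting any annotated start of a gene, it lay in 22 of 62 main genes (35.5%) and in 23.7% of measured genes. Counted by promoter, it lay in 10.3% of all promoters. AAGATGG, the core of the YY1 site, lay in 8 main genes (12.9%) and 9.94% of measured genes. TATAAA lay in 5 (8.06%) and 7.66%. Since CCGGAAG ends with the letters that AAGATGG begins with, matches to both can overlap.

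The libraries held 23928620 (shCon) and 24513089 (shMPP7) estimated counts. MPP7 itself had 42 counts in shCon and 21 in shMPP7, giving 0.488 (95% counting interval 0.275 to 0.843) as the CPM ratio, which is the quotient of counts scaled to library size, shMPP7 over shCon. Of the markers of this mesenchymal line, VIM, CD44, EGFR, AXL and CAV1 had between 4523 and 102008 counts. Its absent receptors and E-cadherin were at or near 0, with at most 5 counts for ESR1, PGR and CDH1. EPCAM had 165 and 148 counts. PTPRC, CD3E, LUM, DCN and VWF, which mark leukocytes, fibroblasts and endothelium, had 0 to 3 counts. CD14 had 121 and 176, and PECAM1 68 and 73. All intervals here cover counting error only, and the reads carried no stated molecular identifiers, so they need not stand for separate molecules.

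Ribosomal protein mRNAs took a slightly larger share of the shMPP7 library. The 85 genes held 5.68% of all counts in shCon (95% Clopper-Pearson interval 5.67 to 5.69) and 6.06% in shMPP7 (6.05 to 6.07), with a ratio of 1.066 (1.064 to 1.069). The large subunit went from 3.49% to 3.74% and the small subunit from 2.19% to 2.32%. Both subunits were therefore higher by nearly the same factor, 1.070 (1.066 to 1.073) and 1.061 (1.058 to 1.065). In bulk RNA, a change in the number of cells of a kind and a change in RNA per cell cannot be told apart.

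A further 2 members were all but silent. RPL3L, the form that replaces RPL3 in heart and skeletal muscle, had 0 counts in shCon and 5 in shMPP7. RPL10L, a retrogene active in the testis, had 0 in both, against a floor of 3 counts, or 0.125 and 0.122 CPM. The other 83 members had at least 100 counts over both libraries and are the ones compared below.

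In FPKM, which divides by transcript length and so allows levels of different genes to be set side by side, the main genes of the large subunit spanned 296.8 to 4501 in shCon with a median of 1615. Those of the small subunit spanned 494.1 to 4617 with a median of 1686. In shMPP7 the medians were 1814 and 1842. The members ranked high by this measure: 54 of them were among the 100 genes with the highest mean FPKM, while only 20 were among the 100 genes with the most counts. RPL41, which encodes a very short peptide, stood at 4501 and 5097 FPKM. RPS16, whose tail reaches the tRNA in the P site, stood at 4617 and 5087. RPL35, of the rim of the peptide exit tunnel, stood at 4399 and 5030. At the other end were the paralogs RPS27L (38.3 and 45.1), RPL22L1 (62.5 and 68.7) and RPL39L (72.0 and 70.5).

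FPKM of the shortest mRNAs rests on a small divisor. The effective length that counts and FPKM imply was 34.3 bases for RPS29, 63.4 for RPS27 and 66.4 for RPS21, against a median of 393.6 over the members. The order of such genes by FPKM therefore depends on the authors' length correction.

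**Figure D1:**
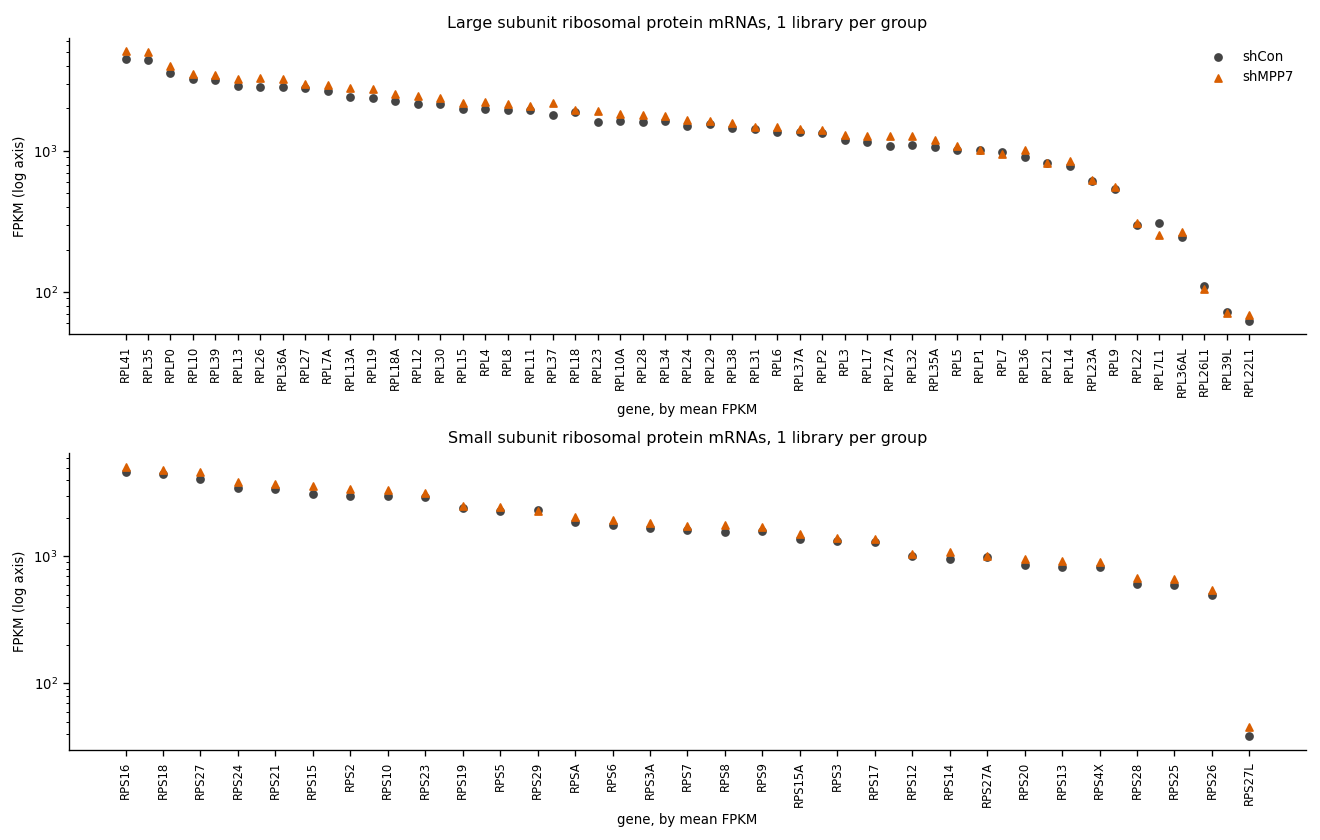
FPKM (log axis) of 82 of the 83 ribosomal protein genes with at least 100 counts, in shCon (circles) and shMPP7 (triangles), 1 library each, ordered by mean FPKM within the large (top) and small (bottom) subunit. Main genes form a shallow slope from RPL41 and RPS16 downwards, and RPS27L, RPL22L1 and RPL39L lie lowest.

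Gene by gene, the difference was small and mostly in one direction. The CPM ratio lay above 1 for 72 of 83 members, with a median log2 CPM ratio of 0.089 (a ratio of 1.06) and quartiles of 0.054 and 0.12. All 12155 genes with at least 100 counts had a median of -0.021, and the 825 other genes with at least 10000 counts had 0.013. The large subunit (51 genes) had a median of 0.089 and the small subunit (32 genes) 0.087, and 8 and 3 of their genes lay below 1.

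By a size rule of 1.1-fold, 16 of 83 members (19.3%) were higher in shMPP7, where 13.5% of all genes with at least 100 counts were. None was lower, where 25.7% of all genes were. The upper share is thus near the background and the lower share is under it. Among genes with at least 10000 counts, 14 of 75 members were higher against 6.11% of all such genes, and 0 were lower against 7.0%. No member was 2-fold apart, against 0.263% of genes.

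The counting interval lay above 1 for 66 members, against 13.8% of all genes, and below 1 for 2, against 21.5%. Deep counting narrows an interval, and 75 of the 83 members had at least 10000 counts, where only 900 of the 12155 genes did. Of the 825 other genes with at least 10000 counts, the interval lay above 1 for 285 and below 1 for 216. The part of depth in these shares was not tested.

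**Figure D2:**
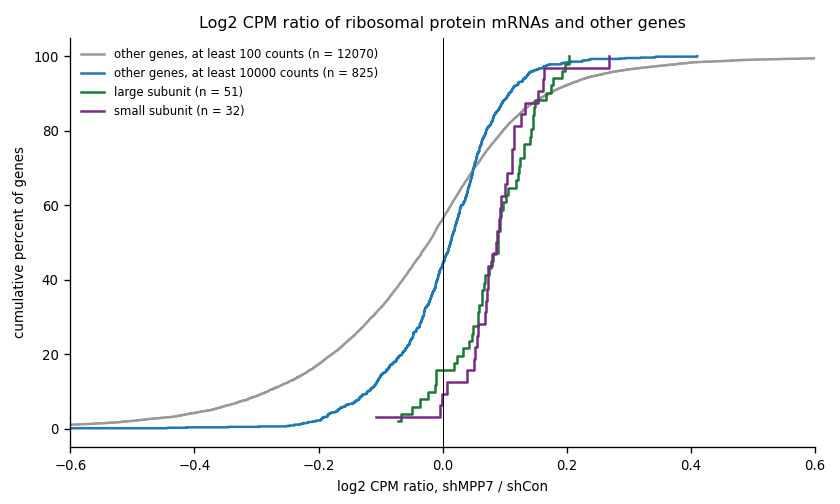
Cumulative percent of genes by log2 CPM ratio (shMPP7 over shCon) for the large subunit (51 genes), the small subunit (32 genes), other genes with at least 100 counts and other genes with at least 10000 counts, drawn between -0.6 and 0.6. The curves of both subunits run together, with medians at 0.089 and 0.087, to the right of the other curves at the middle.

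The size of this shift, and the sign of the members' median against 0, depended on how transcript length and GC content were treated. Relative to shCon, short transcripts were counted more and long ones less across all protein-coding genes. By implied effective length, 77 of the 83 members fell in the shortest of 10 equal groups (up to 814.7 bases), where the other genes had a median log2 CPM ratio of 0.062. In the longest group the median was -0.13. Over 10 groups by GC content the medians ran from -0.19 in the lowest to 0.065 in the highest.

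Over 6 narrower ranges of implied length, the members' median lay above that of the other genes in each, by varying amounts. Between 300 and 450 bases, 27 members had a median of 0.10 and 173 other genes 0.065. From 450 to 650 bases, 22 members had 0.073 and 364 other genes 0.064. From 150 to 300 bases, 15 members had 0.088 and 85 other genes 0.075. Below 150 bases, 8 members had 0.085 and 17 other genes 0.073. Longer members were few: from 650 to 900 bases 8 members had 0.075 and 683 other genes 0.046, and from 900 to 1500 bases 2 members had 0.074 and 2140 other genes 0.021. The spread of such medians between cultures was not measured.

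When the median of other genes in the same of 10 length groups and the same of 10 GC groups was removed, the members' median went from 0.089 to 0.031 by annotated length and 0.018 by implied length. The median of all protein-coding genes, -0.019, was added back in this form. These values are therefore to be read against -0.019 and not against 0. When a smooth quadratic trend in length and GC was removed instead, the members' median was -0.0043 by annotated length and -0.030 by implied length. This form kept the mean log2 ratio of all protein-coding genes, so 0 does not mark the level of other genes here either. The count of members at least 1.1-fold higher then went from 16 to between 2 and 6 over these 4 forms, and the count lower from 0 to between 2 and 5. How closely the quadratic curve followed the shortest genes, where most members fell, was not tested. What lay behind the trend with length and GC was not tested either.

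**Figure D3:**
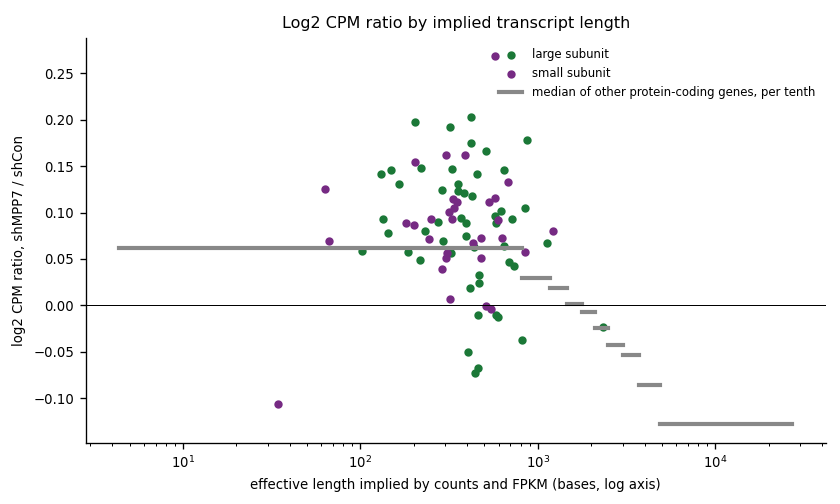
Log2 CPM ratio (shMPP7 over shCon) of 83 ribosomal protein genes against the effective length implied by counts and FPKM (bases, log axis), coloured by subunit, with grey lines for the median of the other protein-coding genes in each of 10 equal groups by length. The grey line stands at 0.062 in the shortest group, which holds 77 of the members, and at -0.13 in the longest.

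The members' log2 CPM ratios had an SD of 0.066, where counting alone gives 0.025. With 1 library per group, differences between members cannot be told apart from variation between preparations or cultures. The interval of 21 members lay wholly above the members' median ratio and that of 22 wholly below it, while 40 included it. Among main genes the more abundant mRNAs tended to have the higher ratio, with Spearman's rho of 0.37 and Pearson's r of 0.39 between log2 mean FPKM and log2 CPM ratio over 77 genes. All points come from the same pair of libraries and share the counts on both axes, so this is a description. Ratios varied little with annotated length (rho -0.018) or GC content (0.18) among the same genes.

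The highest ratio of a main gene was that of RPL37, a zinc-binding large subunit protein, with 9043 counts in shCon and 10623 in shMPP7, with a ratio of 1.15 (1.11 to 1.18). RPL23, which lies at the interface of the subunits and can bind MDM2, had 12551 and 14692, with a ratio of 1.14 (1.12 to 1.17). RPL13A, known also for translational silencing outside the ribosome in human myeloid cells, had 50667 and 58708, with a ratio of 1.13 (1.12 to 1.14). These genes lie on chromosome 5 (40825262 to 40835335, minus strand), chromosome 17 (38847865 to 38853843, minus) and chromosome 19 (49487554 to 49492308, plus) of GRCh38. In the small subunit RPS28 and RPS15, named after their values were seen, were among the highest main genes, with ratios of 1.12 and 1.11.

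At the lower end stood RPS29, a small zinc-binding protein of the subunit head (chromosome 14, 49570984 to 49599164, minus strand). It had 1949 counts in shCon and 1854 in shMPP7, with a ratio of 0.928 (0.871 to 0.990). In FPKM it had 2323 and 2259. RPL23A, a docking site for factors at the exit tunnel, had 6933 and 6776 counts, with a ratio of 0.954 (0.922 to 0.987), though its FPKM was 608.3 in shCon and 626.9 in shMPP7. These were the 2 members with an interval below 1. RPL22, which also binds viral and cellular RNAs outside the ribosome, had 5979 and 5969 counts, with a ratio of 0.975 (0.94 to 1.01), but 296.8 and 309.6 FPKM, where shMPP7 was the higher.

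**Figure D4:**
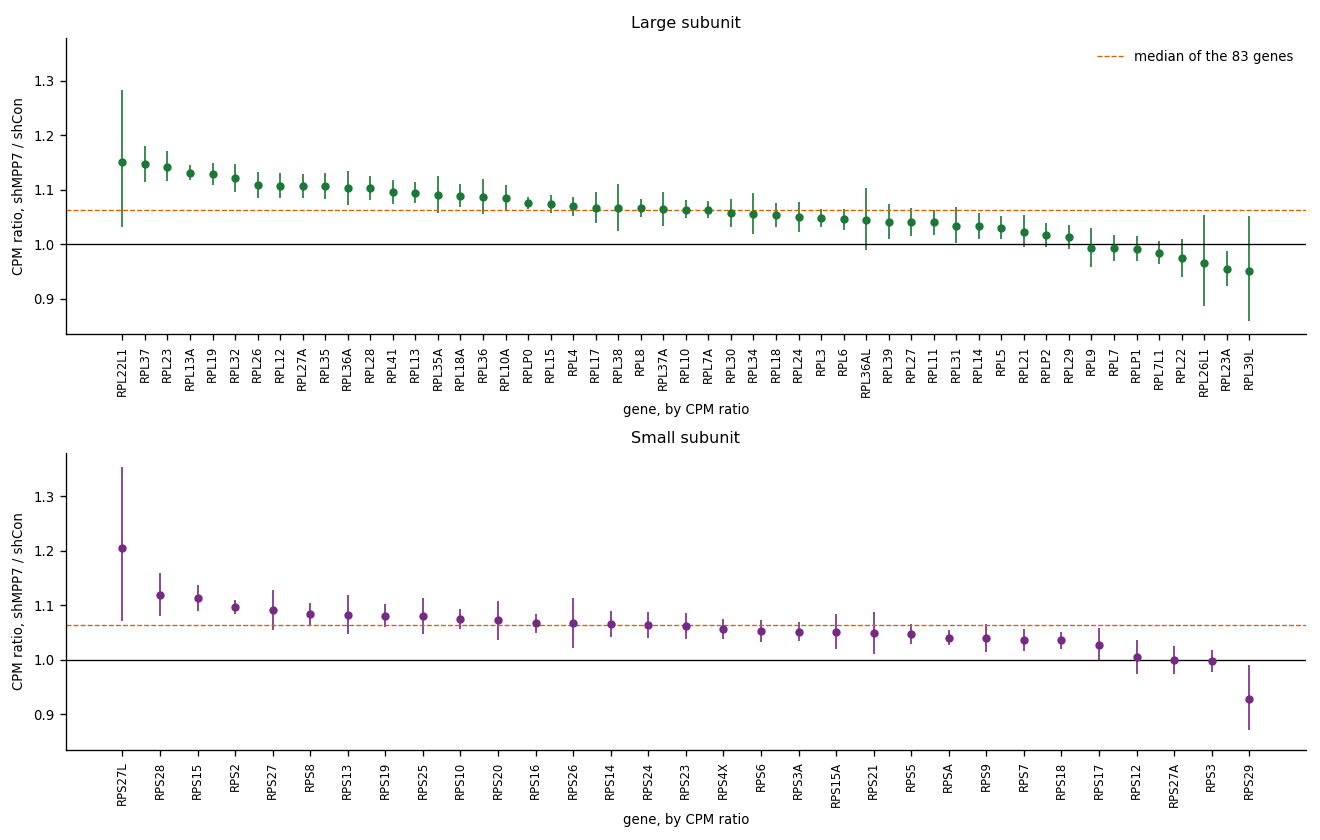
CPM ratio (shMPP7 over shCon) of 82 of the 83 genes, each with its exact 95% counting interval, ordered by ratio within the large (top) and small (bottom) subunit. The dashed line marks the members' median of 1.06 and the solid line equality, and RPS29 and RPL23A are the genes whose whole interval lies below 1.

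Some members at the low end have abundant processed pseudogenes. These intronless copies can share long stretches with the mRNA, and 965 genes in the table had such a name, 187 of them above 0. They held 0.0848% of counts in shCon and 0.0925% in shMPP7. Most of it sat in RPL9P9 (10973 and 12368 counts) and RPL23AP42 (7639 and 8515), with 54.3% and 37.6% of these counts. RPL9P9 thus had more counts than RPL9 itself, at 6037 and 6140. Its transcript holds 44.5% of the 50-base words of RPL9, and RPL23AP42 holds 22.7% of those of RPL23A.

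Adding the counts of same-named pseudogenes turned the ratio of RPL23A from 0.954 to 1.02 (1.00 to 1.045) and that of RPL9 from 0.993 to 1.06 (1.04 to 1.08). Their single ratios are therefore uncertain. For the 83 members together the median stayed at 0.089 and the count higher at 16. The share of a member's 50-base words found in other genes ranged from 0 to 83.4%, with RPS3A highest. The 28 members with under 10% shared words had a median of 0.091, and the 19 with at least 50% one of 0.089. Readthrough genes also share exons with members. RPL36A-HNRNPH2 had 734.8 and 573.9 counts, RPS10-NUDT3 had 293.6 and 345.5, and RPL17-C18orf32 had 9.91 and 26.7.

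The paralogs made up a small part of the pool, and their ratios lay on both sides of 1. Together they held 0.0890% of counts in both libraries, with a ratio of 1.00 (0.981 to 1.02). RPL7L1 held most of these counts, and the others had 0.0233% and 0.0243% without it, with a ratio of 1.044 (1.01 to 1.08). Over the 6 measured ones the median log2 ratio was 0.020, with 3 above and 3 below 0. The counting interval lay above 1 for 2 of the paralogs and below 1 for 0. Their log2 ratios had an SD of 0.14, where counting alone gives 0.064. In FPKM, RPL7L1 and RPL22L1 made up the largest part of their pairs, at 23.9% and 17.4% in shCon, and the other 4 measured ones at most 7.96%.

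RPL22L1 and RPL22 encode alternative large subunit proteins, and RPL22 is known to repress RPL22L1 in mouse cells. RPL22L1 had 614 counts in shCon and 724 in shMPP7, with a CPM ratio of 1.15 (1.03 to 1.28), beside the 0.975 of RPL22. The ratio of the 2 ratios was 1.18 (1.054 to 1.32), the only pair with an interval above 1. RPL22L1 was 17.4% of the pair's FPKM in shCon and 18.2% in shMPP7.

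RPS27L, a known p53 target and variant of the zinc-binding RPS27, had 517.6 and 638.9 counts, with a CPM ratio of 1.205 (1.07 to 1.35), the highest of all members. RPS27 had 6342 and 7088, with a ratio of 1.09 (1.054 to 1.13). The quotient of both was 1.104 (0.979 to 1.246). RPS27L was 0.929% and 0.959% of the pair's FPKM.

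RPL26L1 had a lower ratio than RPL26, which sits at the exit tunnel and is modified by UFM1. RPL26L1 had 1056 and 1045 counts, with a ratio of 0.966 (0.886 to 1.053), and RPL26 had 15116 and 17164, with a ratio of 1.11 (1.08 to 1.13). Their quotient was 0.872 (0.798 to 0.952), the only one with an interval below 1. Of the words of RPL26L1 52.9% occur in other genes, and of those of RPL26 60.8%. The counts of RPL26L1 were whole in both libraries and those of RPL26 were not. The shares of reads of this pair are therefore uncertain.

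RPL39L, a paralog used in male germ cells, had 776 and 756 counts, with a ratio of 0.951 (0.859 to 1.053), and RPL39, which lines the exit tunnel, had 7895 and 8420, with a ratio of 1.04 (1.01 to 1.07). The quotient, 0.914 (0.823 to 1.01), included 1. RPL36AL had 2607 and 2790 counts, with a ratio of 1.04 (0.990 to 1.102). RPL36A, its near-identical partner in protein sequence, had 8960 and 10125, with a ratio of 1.103 (1.07 to 1.14), with a quotient of 0.947 (0.891 to 1.01).

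RPL7L1, which acts in ribosome assembly, had 15730 and 15859 counts, with a ratio of 0.984 (0.963 to 1.01). RPL7 had 13431 and 13658, with a ratio of 0.993 (0.969 to 1.02). In FPKM, however, RPL7L1 went from 306.7 to 254.2, a log2 FPKM ratio of -0.27 beside a log2 CPM ratio of -0.023. This gap between the 2 measures was the widest of any member.

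By place in the ribosome, in groups chosen after the values had been seen, the median log2 CPM ratio was 0.024 for the P stalk, 0.050 for the 5S RNA particle, 0.094 for the exit tunnel rim and 0.11 for mRNA entry and decoding. The groups hold 2 to 7 genes each and their difference has no test. The P stalk recruits translation factors. Its base RPLP0 had 73210 and 80644 counts, with a ratio of 1.08 (1.06 to 1.09), whereas its partners RPLP1 (14471 and 14699) and RPLP2 (15181 and 15809) had ratios of 0.991 (0.969 to 1.01) and 1.02 (0.994 to 1.04). RPLP1 also turned direction in FPKM, at 1007 and 1014. RPL5 and RPL11 join the 5S rRNA and can inhibit MDM2. RPL5 had 18070 and 19068 counts, with a ratio of 1.03 (1.01 to 1.051), and RPL11 15287 and 16286, with a ratio of 1.04 (1.02 to 1.06). Both intervals lay below the members' median.

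The exit tunnel rim group holds 7 proteins, among them RPL35 at 15999 and 18128 counts and a ratio of 1.11 (1.08 to 1.13). With the quadratic length and GC trend removed the log2 ratio of RPL35 turned from 0.15 to -0.032, and to -0.057 with implied length, but was 0.048 and 0.044 with the grouped medians removed. It was not alone: of 30 named members, 11 and 14 took the other sign under the quadratic trends, and 5 and 6 under the grouped medians. Signs here are against 0, while each form kept the level of all protein-coding genes, whose median was -0.019. A value just below 0 therefore need not lie below the typical gene. RPLP0 went from 0.10 to -0.0093 and -0.019, and RPS16 from 0.093 to -0.062 and -0.081, under the quadratic trends. The entry and decoding group was RPS2, RPS3, RPS15 and RPS23. RPS6, the substrate of S6 kinase, had 20583 and 22180 counts, with a ratio of 1.052 (1.03 to 1.07). RPSA, near the mRNA exit and known as a laminin receptor precursor, had 38693 and 41254, with a ratio of 1.04 (1.03 to 1.06), and 66.1% of its words occur in other genes.

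RPS19, the gene most often mutated in Diamond-Blackfan anemia, had 19633 and 21729 counts, with a ratio of 1.08 (1.06 to 1.101). The 19 members mutated in that anemia had a median log2 CPM ratio of 0.088, beside 0.089 for all members, with 3 (15.8%) at least 1.1-fold higher, near the 13.5% of all genes, and none lower, against 25.7%. RPS28 at 1.12 (1.08 to 1.16) was among them.

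Medians were also read by features of the genes. The 47 members with the TOP start had a median of 0.089 and the 20 without it 0.086. Of the other genes, 644 with such a start had -0.0059 and 8483 without it -0.023. The 28 members that host a snoRNA gene had a median of 0.095 and the other 55 had 0.080. The 24 with CCGGAAG had 0.077 and the 43 without it 0.093. The widest gap was for AAGATGG, with 0.12 in the 9 members that hold it and 0.087 in the 58 that do not. Those 9 ranged from -0.0038 to 0.20. Among other genes the medians were -0.015 with AAGATGG and -0.022 without it.

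Genes of related function were read from lists, each given by its counts and its median log2 CPM ratio beside the -0.021 of all genes. The counts at least 1.1-fold higher and lower are to be read against 13.5% and 25.7% of all genes. The ribosomal proteins outside the name rule lay with the members, at 0.098 over 3 genes. RACK1, a signalling scaffold on the small subunit, had 32678 and 36597 counts, with a ratio of 1.09 (1.08 to 1.11). FAU, a fusion of ubiquitin-like protein and RPS30, had a ratio of 1.07 (1.04 to 1.104). The 17 other TOP mRNAs, mainly elongation and initiation factors, had a median of 0.050, with 1 (5.88%) at least 1.1-fold higher and none lower. TPT1, which encodes a growth-related protein, was that gene, at 18662 and 21497 counts and a ratio of 1.12 (1.103 to 1.15). EIF3K, an initiation factor subunit, had 1.08 (1.04 to 1.13).

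The 78 mitochondrial ribosomal proteins had a median of 0.066, with 10 (12.8%) at least 1.1-fold higher, near the background, and 1 (1.28%) lower, under it. MRPS31 had 258 and 319 counts, with a ratio of 1.21 (1.02 to 1.43), and MRPL44 had 530 and 639, with a ratio of 1.18 (1.047 to 1.32). Their median thus lay nearer to the cytosolic proteins than to the median of all genes. It was not corrected for the trend with length and GC. Other protein-coding genes in the shortest of the 10 groups by implied length had 0.062, and the list was not compared with genes of its own length.

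Assembly factors lay closer to the median of all genes. Large subunit assembly factors (25) had a median of 0.012, with 2 (8%) at least 1.1-fold higher and 5 (20%) lower. Small subunit factors (27) had one of -0.021, with 3 (11.1%) higher and 6 (22.2%) lower. The export adaptor NMD3 had 651 and 521 counts, with a ratio of 0.781 (0.695 to 0.878), and NOP16 had 1137 and 1334, with a ratio of 1.15 (1.06 to 1.24). Of the small subunit processome, MPHOSPH10 had a ratio of 0.803 (0.702 to 0.917) and HEATR1 one of 0.814 (0.744 to 0.889).

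The 12 snoRNP and nucleolar proteins had a median of 0.049, with none higher and 1 (8.33%) lower. This was NOP58, a core protein of box C/D particles, at 1222 and 1054 counts and 0.842 (0.775 to 0.915). SNU13 had 1.07 (1.02 to 1.13). The 15 RNA polymerase I genes had 0.013, with 3 higher and 3 lower (20% each), among them TWISTNB at 0.821 (0.726 to 0.929) and TTF1 at 0.831 (0.708 to 0.976). The 16 chaperones and importins of ribosomal proteins had 0.0043, with 2 higher and 2 lower (12.5% each). The higher ones were PDCD2L, at 518.5 and 669.7 counts and 1.26 (1.12 to 1.42), and PDCD2, a chaperone of RPS2, at 1938 and 2392 and 1.205 (1.13 to 1.28).

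Regulators were spread on both sides. The 14 genes of mTOR and LARP1 control had a median of -0.015, with 2 (14.3%) higher and 3 (21.4%) lower, and the most distant were LARP4 at 0.829 (0.766 to 0.897) and RPS6KB1, an S6 kinase, at 0.850 (0.761 to 0.949). Of 9 factors bound at ribosomal protein promoters (median 0.015, 2 higher and 2 lower, 22.2% each), GABPA had 601.5 and 425.1 counts, with a ratio of 0.690 (0.608 to 0.783), and TBPL1 had 0.897 (0.768 to 1.048).

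The surveillance and quality control list lay lowest of these lists, with a median of -0.11 over 18 genes. Of these 1 (5.56%) was at least 1.1-fold higher and 8 (44.4%) were lower, where 25.7% of all genes were. LTN1, the ubiquitin ligase for stalled nascent chains, had 651 and 480 counts, with a ratio of 0.720 (0.638 to 0.811). NEMF, its partner on the large subunit, had 770.2 and 610.2, with a ratio of 0.773 (0.694 to 0.861). List ratios were not corrected for the trend with length and GC.

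**Figure D5:**
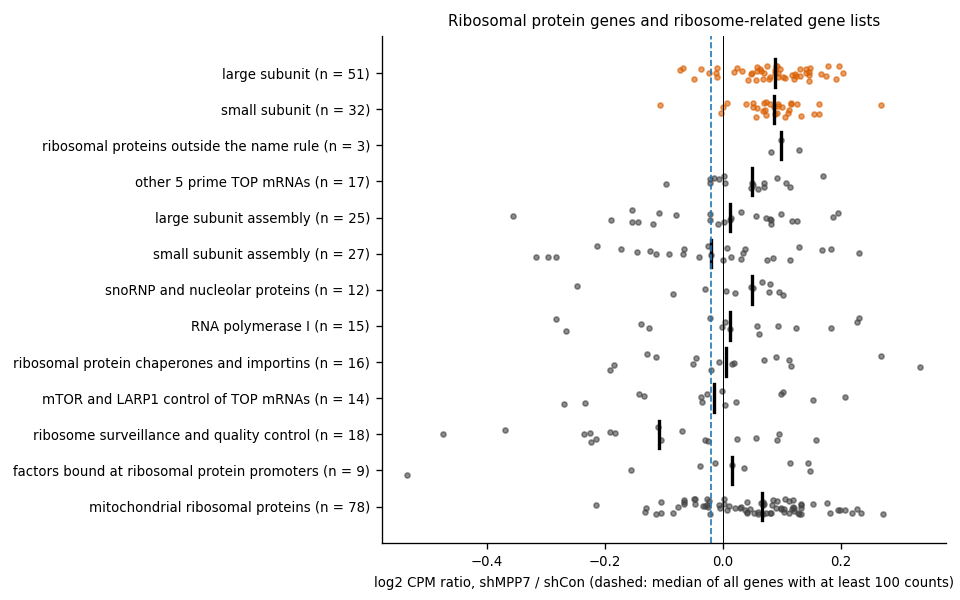
Log2 CPM ratio (shMPP7 over shCon) of each gene in the large and small subunit (orange) and in the related lists (grey), with black bars for medians and a dashed line for the median of all genes at -0.021. Both subunits and the proteins outside the name rule stand between 0.087 and 0.098, and the surveillance and quality control genes stand lowest at -0.11.

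Deposited FPKM gave higher values for members and other genes alike. On the log2(FPKM + 1) scale the members' median was 0.13, with 37 at least 1.1-fold higher and 1 lower. All genes also moved up on that scale, to a median of 0.041, with 26.9% higher and 18.3% lower instead of 13.5% and 25.7%. From CPM to FPKM the log2 ratio of a gene went up by a median of 0.059 over all genes and 0.050 over the members.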

How the data were processed

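RNA sequencing of 1 shCon and 1 shMPP7 library gave, per the file headers, a count and an FPKM for each of 58233 gene lines. The deposited counts were estimated counts (71.8% and 73.0% of values above 0 were whole), and FPKM was used as deposited by the authors. TopHat2 2.0.9, Cuffdiff and hg19 are listed in the submitters' processing notes, while the counting tool and strand setting are not given in the sources used here. Among the Ensembl IDs, 57895 occur in GENCODE 29 (GRCh38), which supplied positions, lengths and GC, so the build behind the table is unsettled.

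CPM was each count over its library total. For 215 names on several lines the line with the most counts was kept. Ratios of rounded counts had exact Clopper-Pearson 95% intervals, for genes with at least 100 counts over both libraries. MPP7, under that minimum, was given an interval as well. The intervals were checked only on whole counts simulated with the counting error they assume. That check of the code cannot say how well they hold for estimated counts. The size rule was 1.1-fold. Effective length was implied from counts, FPKM and library totals. Starts came from the RefSeq promoter table (GRCh38.p14), which matched 68 of 85 members. Words of 50 bases were compared between GENCODE 29 transcripts. Python 3.11.15, numpy 2.4.6, pandas 2.3.3, scipy 1.17.1 and edgeR 4.0.16 (TMM factors only, no test) were used.

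Named members were those with well-known roles, each paralog with its main gene, the 5 highest and 5 lowest CPM ratios among members with at least 1000 counts, and the 3 highest and 3 lowest mean FPKM. In each list the 2 genes farthest from a log2 ratio of 0 were named. The members and lists were chosen with earlier results of these data known. Alternatives changed the scaling, unit, pseudocount, count minimum, size rule, treatment of length and GC, and treatment of shared reads. The values of a few named genes are not reported here.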

Additional observations from a re-analysis of the deposited data

How the results depend on the processing

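Values are the counts of members at least 1.1-fold higher and lower, then the median log2 ratio of all members, the large and the small subunit, against 16, 0, 0.089, 0.089 and 0.087 in CPM. FPKM with 1 or 0.1 added gave 37, 1, 0.13, 0.13 and 0.14. TMM scaling gave 27 higher (17.5% of all genes were higher and 21.8% lower) with medians of 0.12, 0.12 and 0.11, median-ratio scaling 24 higher (16.7% and 22.5%) with medians of 0.11, 0.11 and 0.11, and a total without the members 0.095, 0.095 and 0.093. These scalings set shMPP7 off by -0.026, -0.021 and -0.0058 on the log2 scale. Removing the quadratic length and GC trend gave 6, 2, -0.0043, -0.0023 and -0.0079 by annotated length, and 2, 5, -0.030, -0.022 and -0.037 by implied length. Removing the medians of other genes in 10 length by 10 GC groups gave 5, 2, 0.031, 0.031 and 0.031 by annotated length, and 4, 3, 0.018, 0.014 and 0.022 by implied length. The grouped form added back the median of all protein-coding genes, -0.019, and the quadratic form kept their mean. Their values and signs are therefore not set against other genes at 0. A smaller size rule of 5% gave 51 and 2, and the 1.2-fold rule 1 higher. Members with few shared words gave 7 higher (of 28 genes) and a small subunit median of 0.080. Under the quadratic trends 11 and 14 of 30 named members took the other sign, among them RPL35 at -0.032 and -0.057, and under the grouped medians 5 and 6. The implied length, the grouped medians, the shared words and the pseudogene sums were chosen after seeing the data. The share of counts in the members kept a ratio of 1.07 under each total tried. No paired analysis was possible because each group has 1 library, and leaving out a replicate was not possible for the same reason.

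Limits: differences of a few percent between 2 libraries have no replicate spread to be set against. At the depth of these mRNAs counting error is small, and the variation between cultures, which the intervals do not cover, is unknown here. Reads of near-identical copies are divided by an unstated rule.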
